A study of Mus musculus with 25 samples.

Results

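The crosslink sites of SRSF7 on RNA from ribosome fractions (piCLIP, 4 libraries) were compared with those from whole cells (iCLIP, 3 libraries). The 7 libraries were picked from the 25 of the series by their titles: the immunoprecipitates of the monosomal fraction (replicates 1 and 2) and of the polysomal fraction (replicates 1 and 2) on one side, and the UV-treated whole-cell libraries of the unmodified protein (replicates 2, 3 and 4) on the other. The choice used no measured value. All 7 came from P19 cells, a mouse embryonal carcinoma line, that overexpressed SRSF7 fused to GFP, and in all 7 the cells received 254 nm UV light and the protein was pulled down with an antibody against the GFP tag. The crosslinked protein is therefore the overexpressed fusion in both groups, and no library of the comparison reports on untagged SRSF7. Controls were 1 library titled IgG for each ribosome fraction and 1 whole-cell library without UV. The labels of the IgG libraries list the same anti-GFP antibody as those of the immunoprecipitates, so what these libraries control for is not settled. The labels do not say whether a monosomal and a polysomal library of one replicate number came from the same culture.

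SRSF7 belongs to the SR proteins, which carry an RNA recognition motif and a domain rich in serine and arginine. It binds pre-mRNA in the nucleus, where it takes part in the choice of splice sites, and it is known to shuttle to the cytoplasm and to act in mRNA export. Pre-mRNA holds long introns, while the mRNA on ribosomes consists of joined exons. On a genome map, a protein bound to pre-mRNA thus leaves events spread over long stretches and a protein bound to mRNA leaves events in short ones. In iCLIP the reverse transcriptase often halts next to the nucleotide that was crosslinked, and each cDNA therefore marks 1 event on 1 strand. In piCLIP the same readout is taken from ribosome fractions, in which monosomes carry 1 ribosome per RNA and polysomes several.

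Depth differed widely between the groups. The monosomal immunoprecipitates held 52318 and 31877 events on the nuclear chromosomes and the polysomal ones 23073 and 18319, against 220805, 1092573 and 3932606 events in the iCLIP libraries. The monosomal IgG library held 1153 events, the polysomal one 11154 and the library without UV 87804. Between 54.4% and 69.7% of the events of a piCLIP immunoprecipitate were the only cDNA at their position, against 82.6% to 90.8% in iCLIP. By the headers, the result type is S for piCLIP and G for iCLIP. The piCLIP libraries also share a library identifier that no iCLIP library carries, so that assay, identifier and result type cannot be told apart. Whether this identifier stands for a sequencing run is not stated. For iCLIP 3 and 4 the headers give the same library identifier and the same replicate number. Reduced to the depth of the shallower of the pair, they differed over 57181 windows by little more than sampling noise (dispersion index 1.09, where 1 is pure counting noise). The index was 1.85 and 1.89 for iCLIP 2 with each of them and 5.43 to 10.7 between piCLIP libraries, but depth and windows differed between pairs (220805 events for iCLIP 2 and 18319 to 31877 for piCLIP), so these indices are not on 1 scale. Whether the iCLIP spread is biological or technical is open in the labels.

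The first comparison asks how events lie to each other when every library is reduced to the same depth, here the 18319 events of the shallowest. The events of the ribosome fractions lay much closer together. In the monosomal libraries 46.3% and 47.7% of the events, and in the polysomal ones 40.6% and 58.5%, had another event within 100 nt on the same strand, against 10.8%, 8.55% and 7.58% in the iCLIP libraries. All 4 piCLIP libraries lay above all 3 iCLIP libraries. The mean difference was 39.3 percentage points (48.3% ± 7.48 in piCLIP, SD, n = 4, and 8.97% ± 1.64 in iCLIP, n = 3). The two-sided exact permutation test gave p = 0.0571, the smallest that 4 against 3 libraries allow (0.0714 after Benjamini-Hochberg adjustment over 5 such measures).

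Part of the closeness was at the very same nucleotide. The share of events with another cDNA on the same nucleotide was 24.01% and 24.4% in the monosomal and 27.03% and 45.6% in the polysomal libraries, against 2.40%, 0.916% and 0.495% in iCLIP. The sources used here do not say whether amplified copies had been collapsed in both groups. With each position counted 1 time and the libraries reduced to 12339 positions, 25.6% of piCLIP and 3.66% of iCLIP positions still had a neighbour within 100 nt. The order turned at long range. At 100000 nt, 81.2%, 77.2%, 78.9% and 77.5% of the piCLIP events had a neighbour, against 83.5%, 86.2% and 86.7% of the iCLIP events. The iCLIP curve rose most between 1000 and 100000 nt, which is the range of long stretches, and the piCLIP curve began high and rose less.

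**Figure D1:**
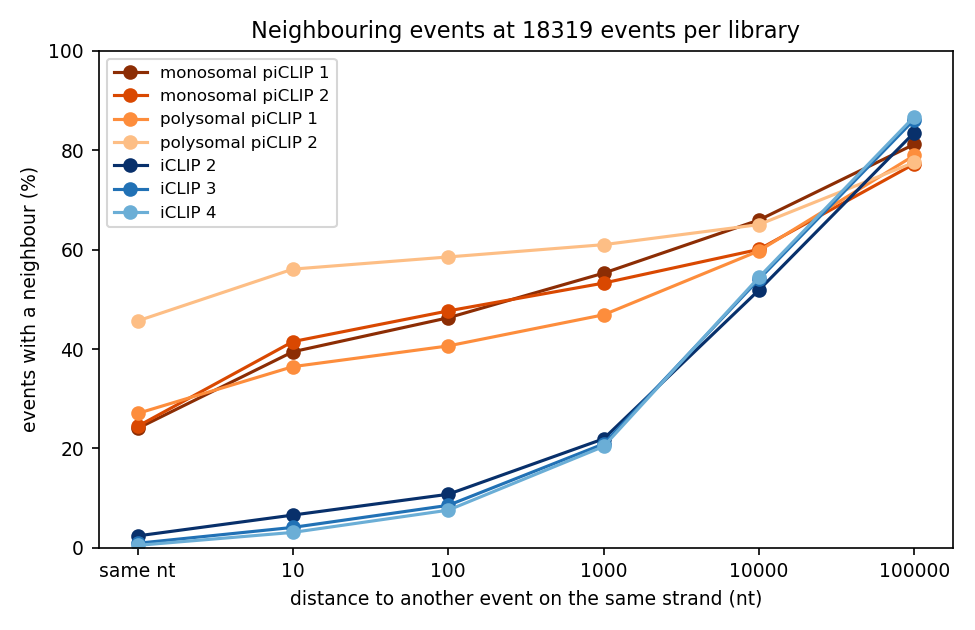
Share of events (%) that have another event within the distance on the x axis on the same strand, after every library was reduced to 18319 events; each line is 1 library, orange for the 4 piCLIP immunoprecipitates and blue for the 3 iCLIP libraries. The piCLIP lines lie above the iCLIP lines up to 10000 nt (at 100 nt 40.6% to 58.5% against 7.58% to 10.8%) and below them at 100000 nt.

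The polysomal IgG library had the same property. Reduced to 9159 events, 57.0% of its events had a neighbour within 100 nt, against 37.8%, 39.9%, 30.8% and 49.0% in the 4 immunoprecipitates at that depth. The iCLIP libraries had 5.30% to 8.20% and the library without UV 8.87%. The 100-nt bins that held at least 1 IgG event contained 20.4%, 23.7%, 14.9% and 21.6% of the piCLIP events, against 3.25%, 1.98% and 1.53% of the iCLIP events. Without those bins the neighbour share was 36.5% in piCLIP and 6.44% in iCLIP, again with no overlap between the groups.

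Fewer places were hit in the ribosome fractions. At 18319 events, piCLIP events fell into 9819, 10201, 11533 and 9477 stranded windows of 5000 nt, against 14657, 14762 and 14843 in iCLIP. The piCLIP mean was lower by 4496 windows (10258 ± 900.2, SD, n = 4, against 14754 ± 93.1, n = 3; exact permutation p = 0.0571, adjusted 0.0714). The groups did not overlap. The difference was -1740 windows with each position counted 1 time, at 12339 positions, and -2430 without bins that held an IgG event, at 14355 events, again with no overlap. At 9159 events the polysomal IgG library hit 4802 windows, below the 5639 to 6554 of the immunoprecipitates. The piCLIP libraries varied far more among themselves than the iCLIP libraries did, and polysomal replicate 1 was the closest to iCLIP. In windows of 100000 nt the libraries overlapped, with 7421, 8236, 8450 and 7969 windows in piCLIP and 8534, 8095 and 8027 in iCLIP.

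To set stretches apart from packed sites, a map was taken from libraries in neither group, the 2 UV libraries of the variant labelled mutZn (18128766 nuclear events). A 100-nt bin belonged to the map when the surrounding 10 kb held at least 100 map events. The map had 21522 stretches, together 424 Mb of strand, with a median length of 10.6 kb and a longest of 620.2 kb. A bin was called packed when its own density was at least 10 times that of its surroundings (0.253% of the bins) and thin when it was below 2 times that density (86.7%). No exon or intron annotation of this genome build (mm9) was used, so a packed bin is not equated with an exon, nor a thin one with an intron, and markers of P19 cells could not be looked up.

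Events of the ribosome fractions were packed more often. Of the events inside the map, 21.6% and 31.6% in the monosomal and 11.2% and 18.7% in the polysomal libraries fell into packed bins, against 6.07%, 5.09% and 4.66% in iCLIP. Each piCLIP library lay above each iCLIP library, and both monosomal libraries lay above both polysomal ones. With each position counted 1 time the groups still did not overlap. The order of the fractions did not hold then, with polysomal replicate 2 (19.7%) above monosomal replicate 1 (14.8%). The means were 20.8% ± 8.44 (SD, n = 4) and 5.27% ± 0.720 (n = 3), a difference of 15.5 percentage points (exact permutation p = 0.0571, adjusted 0.0714). The control libraries from the same fractions were packed as well, at 21.9% for monosomal IgG (exact 95% binomial interval 18.2% to 25.9%, counting error only) and 43.2% for polysomal IgG (41.7% to 44.7%). The whole-cell library without UV had 6.66%. Without the bins that held an IgG event the packed share was 10.5% in piCLIP and 4.27% in iCLIP, a difference of 6.23 points, and the lowest piCLIP library (6.13%) still lay above the highest iCLIP library (4.37%). When the local density was taken over 25 kb on each side, the ranges overlapped, 14.2% to 33.0% in piCLIP and 13.9% to 15.9% in iCLIP.

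The thin share did not separate the groups at the density limit used. It was 41.4% and 41.7% in the monosomal and 58.3% and 54.7% in the polysomal libraries, against 54.4%, 55.6% and 56.3% in iCLIP. The monosomal values lay below and the polysomal values around the iCLIP values. The mean difference of -6.36 points was smaller than the spread among piCLIP libraries (49.0% ± 8.77, SD, n = 4, against 55.4% ± 0.936, n = 3; exact permutation p = 0.457, adjusted 0.457). The difference depended on that limit. It was -12.6 points, with no overlap between the groups, when bins below 4 times the local density were counted (65.8% in piCLIP and 78.4% in iCLIP, exact permutation p = 0.0571), and -0.70 points below 1 time. It was -3.80 and -3.93 points without monosomal replicate 1 or 2, -2.47 points with the local density over 25 kb, and -0.68 points without bins that held an IgG event. With the polysomal libraries alone it turned to 1.13 points. As a share of all nuclear events, thin bins held 27.6% in piCLIP and 47.1% in iCLIP, with no overlap, since this denominator includes the events outside the map.

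That outside share was 34.8%, 49.5%, 39.6% and 50.3% in piCLIP, against 17.5%, 14.1% and 13.5% in iCLIP. The groups were separated by 28.5 percentage points (43.5% ± 7.59, SD, n = 4, and 15.02% ± 2.13, n = 3; exact permutation p = 0.0571, adjusted 0.0714). The IgG libraries lay higher still, at 59.6% and 61.0%, and the library without UV at 14.8%. Of the piCLIP outside events 47.2%, 54.0%, 59.1% and 55.7% were the only event of their library in a 100-nt bin, against 89.6%, 83.7% and 71.8% in iCLIP. Bins with 5 or more events held between 24.97% and 30.5% of them, against 2.53%, 2.08% and 4.96% in the far deeper iCLIP libraries. Between 39.9% and 45.8% of them lay in a bin that also held an event of another piCLIP immunoprecipitate. These are places where the whole-cell libraries of the mutZn variant had too few events to be placed on the map.

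**Figure D2:**
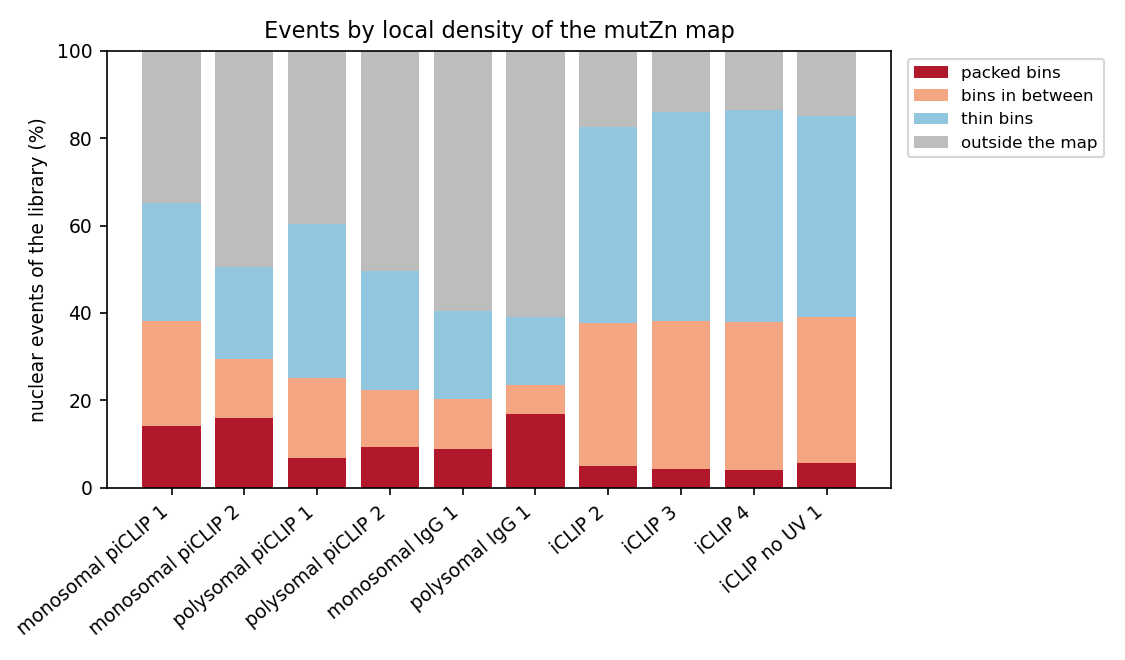
Share of each library's nuclear events (%) in packed bins, in bins in between, in thin bins and outside the map made from the mutZn libraries; 1 bar is 1 library, the 4 piCLIP immunoprecipitates and their 2 IgG controls on the left and the 3 iCLIP libraries and the library without UV on the right. The outside share is 34.8% to 50.3% in the immunoprecipitates, 59.6% and 61.0% in IgG and 13.5% to 17.5% in iCLIP.

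Inside the map the groups used stretches of different length. Stretches of 10 to 25 kb held 47.3% and 51.0% of the monosomal and 30.6% and 37.5% of the polysomal events in the map, against 23.3%, 22.1% and 21.5% in iCLIP. Stretches of 100 kb or more held 6.35%, 7.54%, 12.6% and 11.4% in piCLIP and 18.4%, 19.5% and 19.8% in iCLIP. All piCLIP libraries thus lay on one side of all iCLIP libraries in both classes, with the polysomal libraries nearer to iCLIP. Since the local density was counted over 10 kb, an isolated packed site makes a stretch of about that length by itself. The IgG libraries held 48.5% and 47.6% in stretches of 10 to 25 kb and 6.01% and 9.99% in those of 100 kb or more.

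Summed over all stretches, the events fell into packed bins of the map no more often than iCLIP events of the same stretches. For every piCLIP library the packed share was calculated that it would have if its events in each stretch were split as the pooled iCLIP events of that stretch. Monosomal replicate 1 had 21.6% where this split gave 24.3%, and replicate 2 had 31.6% where it gave 33.3%. Polysomal replicate 1 had 11.2% where it gave 14.3%, and replicate 2 had 18.7% where it gave 19.5%. All 4 libraries were below the value of that split, by 0.72 to 3.09 points. In the iCLIP libraries, each set against the other 2, the gap was at most 0.0487 points. The thin share was above that split in all 4 libraries, by 2.68, 6.41, 9.40 and 8.51 points. Without bins that held an IgG event the packed share was below it by 2.20 to 5.67 points, and the thin share above it by 3.87 to 10.3 points. The piCLIP and iCLIP packed shares thus differed by which stretches were hit, and over the shared stretches together the piCLIP share was not the larger one. Single stretches differed in either direction. No test was made of these gaps. The packed bins came from whole-cell libraries, so events piled up at other sites of a stretch did not count as packed. In a stretch made by an isolated packed site the split can leave piCLIP no room above it. At chr3:85598401-85608600, for example, 100% of the iCLIP events were packed. Packing at sites of piCLIP alone is therefore outside this comparison.

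**Figure D3:**
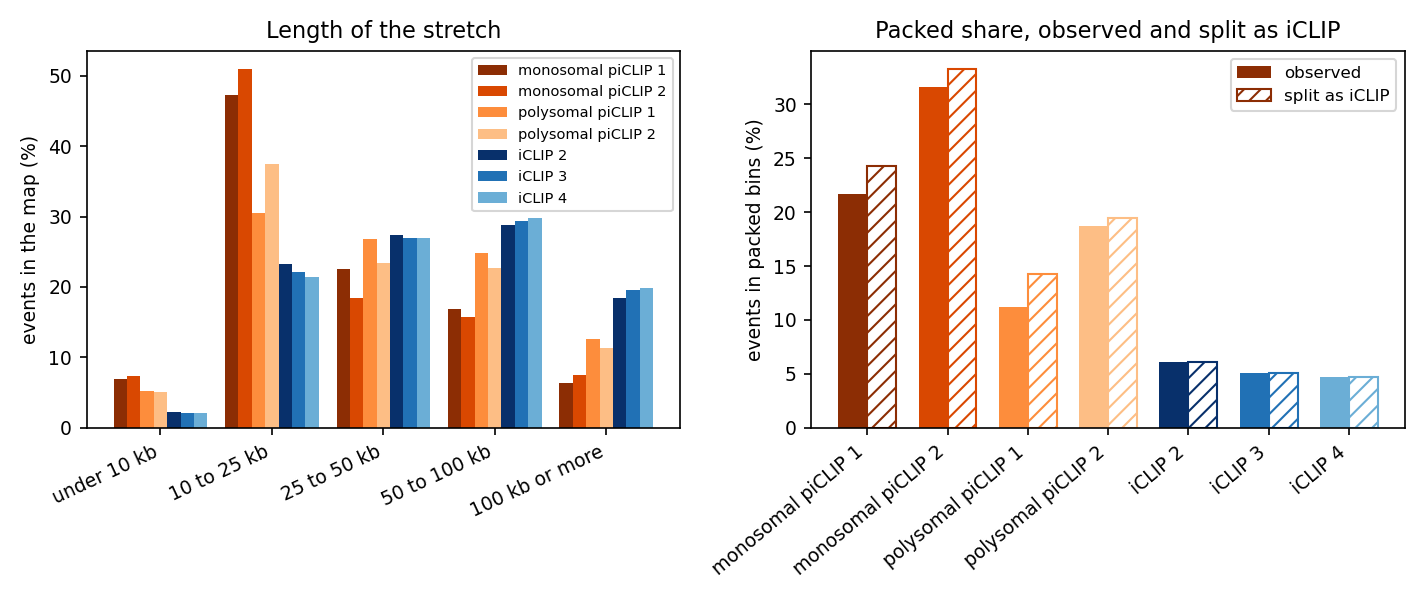
Left, share of the events in the map (%) by the length of the stretch they lie in, with 1 bar per library. Right, packed share (%) as observed (filled bars) beside the share each library would have if its events in each stretch were split as the iCLIP events there (hatched bars). Stretches of 10 to 25 kb hold 30.6% to 51.0% in piCLIP and 21.5% to 23.3% in iCLIP, and the filled piCLIP bars lie 0.72 to 3.09 points below the hatched ones.

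The stretches with the highest mean share of piCLIP events show both kinds of place (they were ranked by piCLIP events, so their piCLIP level is a description). The first was on the minus strand at chr17:80590901-80629200, with 3.46%, 1.45%, 1.68% and 0.835% of the piCLIP events in the map against 1.93%, 1.29% and 1.06% of the iCLIP events. The second, on the minus strand at chr19:5790301-5807700, held 2.44%, 1.45%, 1.13% and 0.978% against 1.80%, 1.27% and 1.09%. In both the groups overlapped and under 1% of the events of either group lay in packed bins. The seventh, 54.7 kb on the minus strand at chr7:67100301-67155000, differed little, with 0.575%, 0.441%, 0.466% and 0.440% against 0.395%, 0.349% and 0.347%, each piCLIP library above each iCLIP library.

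Other stretches of the 10 held a far smaller share of the iCLIP than of the piCLIP events. On the minus strand at chr5:89633101-89643200, piCLIP had 501, 117, 115 and 23 events and the much deeper iCLIP libraries had 9, 35 and 154. Of the piCLIP events there 2.91% were in packed bins, against 98.5% of the iCLIP events, so most piCLIP events in this stretch were away from the sites that held the iCLIP events. The IgG libraries had 1 event each. On the plus strand at chr3:85598401-85608600 the piCLIP libraries had 265, 276, 8 and 64 events and iCLIP 51, 63 and 153, and all of them were packed. Polysomal IgG had 159 events at that site. On the plus strand at chr9:70386301-70449700, 63.4 kb long, 92.7% of the piCLIP and 12.7% of the iCLIP events were packed, with 154, 151, 21 and 28 events against 112, 393 and 1490. Polysomal IgG had 28 events there and monosomal IgG 2, or 0.643% and 0.429% of their events in the map. The immunoprecipitates had 0.452%, 0.937%, 0.151% and 0.308%. The plus strand at chr11:4766201-4831900 was similar, with 98.0% and 18.3% packed, and polysomal IgG held 68 events there.

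The second comparison asks in which windows of 5000 nt the libraries differed. Of 297014 windows with any event, 608 passed a minimum of 15 events in all and 191 CPM (events scaled by the nuclear total of the library, the usual CPM) in at least 2 libraries, and were tested with a negative binomial quasi-likelihood model moderated with limma. The threshold was an adjusted p of 0.05, and log2 fold changes are piCLIP minus iCLIP. Of the 608 windows 479 (78.8%) passed, 450 (74.0%) higher and 29 (4.77%) lower in piCLIP. With trimmed-mean scaling 139 were higher and 149 lower. The split also followed the minimum. Only 1 of the 450 higher windows reached the minimum through 2 iCLIP libraries, all 29 lower ones did, and 40 of the 608 windows reached it in 2 libraries of each group. The counts therefore carry no direction for the genome as a whole. In all, 401 windows (66.0%) had no overlap between the groups.

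The shape of the piCLIP signal in the 450 higher windows was described by the shortest interval that held 90% of the piCLIP events, in classes chosen after the values were seen. In 62 windows this interval was 10 nt or shorter (median 3 nt), in 169 it was 11 to 100 nt (median 33 nt) and in 219 it was longer (median 1454 nt). An IgG event lay in 49 of the 62, 133 of the 169 and 115 of the 219. The pooled IgG level was at or above the piCLIP mean in 39, 58 and 13 of them. The narrowest class had the least whole-cell signal, with no iCLIP event in 22 of its 62 windows. In 348 of the higher windows iCLIP also had 10 events or more, and the iCLIP interval was within 2 times the piCLIP interval in 229 of these.

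**Figure D4:**
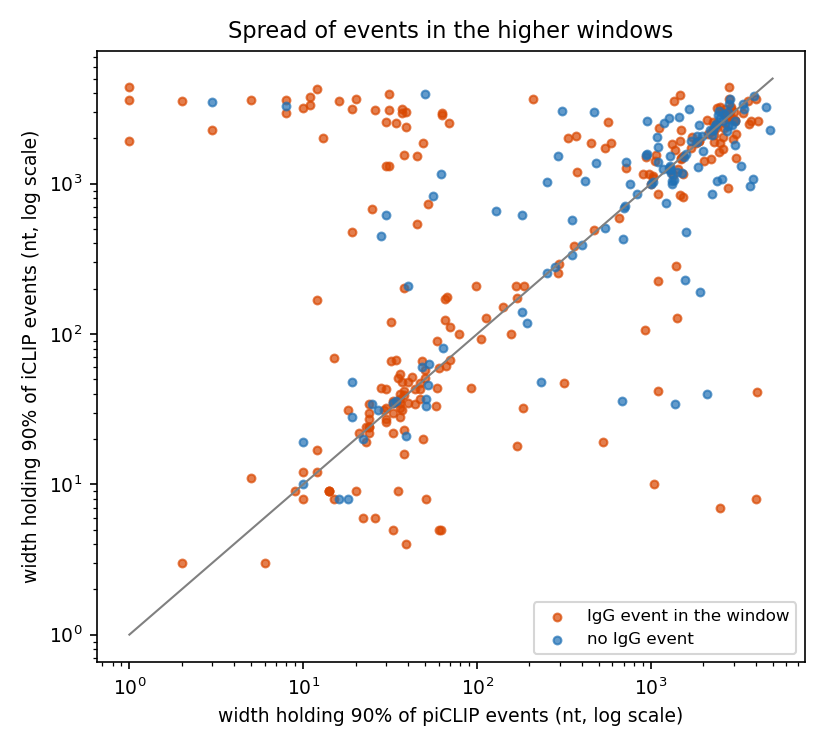
Shortest interval (nt, log scales) that holds 90% of the events of a window, for piCLIP on the x axis and for iCLIP on the y axis, in the 348 higher windows with at least 10 events of each group; orange points hold an IgG event (230 windows), blue ones none. Of these windows 229 lie within 2 times of the diagonal, in a group near 30 to 50 nt and another above 1000 nt, and the points at the upper left are narrow in piCLIP and wide in iCLIP.

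Of the 10 higher windows with the largest fold change, 8 had no iCLIP event at all and held nearly all piCLIP events on 1 to 4 nucleotides. On the plus strand of chr2:40900001-40905000 the monosomal libraries had 105 and 10 events and the polysomal ones 17 and 209, that is 2007, 314, 737 and 11409 CPM, and 78.0% of them were at a single nucleotide. No event was seen in the 3 iCLIP libraries, so the piCLIP mean (3617 CPM ± 5244, SD, n = 4) was at least 6324-fold higher than iCLIP, taken at a floor of 3 events in the iCLIP libraries together (adjusted p = 1.87e-04). Bounds of this kind allow for the iCLIP side only and take the piCLIP mean as given. Here polysomal replicate 2 made up most of that mean. The IgG libraries had 99 monosomal events (85863 CPM) and 55 polysomal events (4931 CPM) there. The monosomal IgG level was above all 4 immunoprecipitates and the polysomal one below polysomal replicate 2 alone.

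On the plus strand of chr7:53240001-53245000 the libraries had 54, 8, 231 and 49 piCLIP events and no iCLIP event (at least 6107-fold, adjusted p = 1.32e-04), with 96.5% at a single nucleotide. IgG had 3 and 36 events. On the minus strand of chr11:62050001-62055000 the counts were 50, 9, 219 and 30 against 0, 0 and 0 (at least 5407-fold, adjusted p = 1.32e-04), and IgG had 4 and 47. The others without an iCLIP event were on the plus strands of chr1:109660001-109665000, chr2:28190001-28195000 and chr12:63685001-63690000 and on the minus strands of chr9:95035001-95040000 and chr8:82000001-82005000, with bounds of at least 1396-fold to at least 4477-fold and 80 to 234 piCLIP events. Each of these windows also held IgG events. Polysomal replicate 2 was the highest immunoprecipitate in the chr1, chr8 and chr12 windows and in both chr2 windows, and polysomal replicate 1 in the chr7, chr9 and chr11 windows.

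The remaining 2 of the 10 were clusters of about 40 nt. On the plus strand of chr16:33045001-33050000, 90% of the piCLIP events lay within 38 nt (chr16:33047699-33047736), on 54 positions of the window in all. The libraries had 335, 354, 150 and 114 events, or 6403, 11105, 6501 and 6223 CPM, against 2, 1 and 5 events in iCLIP. This was the strongest of the named windows and the most even one among the immunoprecipitates (7558 CPM ± 2368, SD, n = 4, and 3.75 CPM ± 4.60, n = 3; log2 fold change 11.32 ± 1.07, SE, adjusted p = 1.32e-04). The polysomal IgG library held 3317 CPM and the monosomal one 3469 CPM, from 37 and 4 events. On the minus strand of chr1:153535001-153540000, 40 nt held 90% of 94, 148, 3 and 33 events, against 0, 1 and 5 in iCLIP (log2 fold change 10.03 ± 1.23, SE, adjusted p = 1.32e-04), and polysomal IgG held 41 events. None of the 10 windows was left for testing when bins with an IgG event were taken out.

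The same rule was therefore applied after those bins were left out, a step added after the data were seen. Then 281 of 357 windows passed, 262 higher and 19 lower. The broad signal on the minus strand of chr5:89630001-89635000 came out at 295, 80, 65 and 10 events, or 7086, 3289, 3311 and 697 CPM, against 4.68, 7.47 and 3.87 CPM in iCLIP. Taken over all events of the window, IgG bins included, its piCLIP events covered 221 positions and 90% of them lay within 1094 nt. In iCLIP 90% of the events lay within 42 nt. The log2 fold change was 9.10 ± 0.70 (SE, adjusted p = 5.78e-06).

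A further 3 of the 10 windows of that list were broad, with intervals again taken over all events of the window. The plus strand of chr7:8525001-8530000 had 26, 16, 8 and 3 piCLIP events and no iCLIP event, at least 816-fold higher, over 503 nt. The minus strand of chr10:23580001-23585000 had 45, 19, 15 and 8 events against 0, 0 and 6, over 1188 nt. The minus strand of chr6:88515001-88520000 had 45, 12, 15 and 3 events against 0, 2 and 7, over 1632 nt. Scaled by depth, monosomal replicate 2 (658 CPM) was above replicate 1 (624 CPM) in the first of these, and replicate 1 was the highest in the other 2. A cluster of 64 nt on the minus strand of chr8:53420001-53425000 had 42, 68, 16 and 16 events against 0, 4 and 13 (log2 fold change 8.47 ± 0.71, SE), and neither IgG library had an event there. The other 5 windows held intervals of 3 to 25 nt.

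The lower windows had broad whole-cell signal. Separation of the groups was a condition for naming a window of either kind. The minimum also favoured a difference in windows that reached it in 1 group alone. The adjusted p-values of named windows therefore describe them and support nothing further. In 9 of the 10 named ones 90% of the iCLIP events spread over 2591 to 4657 nt. The plus strand of chrX:148340001-148345000 had 1, 2, 0 and 0 piCLIP events, or 19.1, 62.7, 0 and 0 CPM, against 326, 276 and 283 CPM in iCLIP. The mean was 20.5 CPM ± 29.6 (SD, n = 4) in piCLIP and 295 CPM ± 26.9 (n = 3) in iCLIP, with an adjusted p of 9.92e-04 in the fit over all windows. On the plus strand of chr17:23945001-23950000 there were 2 piCLIP events, both in polysomal replicate 1, against 276, 232 and 222 CPM in iCLIP (adjusted p = 0.00198). Since few piCLIP events are expected at this depth, a fold change of such a window has little precision.

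Those with the most piCLIP events were on the plus strands of chr17:23955001-23960000 and chr5:147070001-147075000. The first had 76.5, 0, 173 and 0 CPM in piCLIP and 634, 460 and 507 CPM in iCLIP (log2 fold change -3.05 ± 0.95, SE, adjusted p = 0.00774). The second had 229, 157, 86.7 and 0 CPM against 285, 937 and 642 CPM (-2.69 ± 0.92, SE, adjusted p = 0.0127), and it was the only named lower window with a narrow signal (276 nt for iCLIP and 295 nt for piCLIP). The library without UV held 672 and 1014 CPM there, above the iCLIP mean in both. The other 6 were on the minus strands of chr13:28975001-28980000, chr8:87365001-87370000, chr8:125415001-125420000, chr17:80675001-80680000 and chr11:106645001-106650000 and on the plus strand of chr16:33725001-33730000, with 3 to 6 piCLIP events each and 194 to 348 CPM in iCLIP. The library without UV was also above the iCLIP mean at chr17:23945001-23950000 (399 against 244 CPM), chr8:125415001-125420000 (399 against 258 CPM) and chr13:28975001-28980000 (285 against 231 CPM). In the remaining named lower windows it was below, for example 228 against 295 CPM at chrX and 330 against 348 CPM at chr16. None of the 10 lower windows passed when all 297014 windows were tested without a minimum (the highest adjusted p over all alternatives was 0.913). The 653 windows that passed there were all higher in piCLIP. The 10 higher ones passed in each of the alternatives in which they were tested. They had been picked from these same data for the largest fold change, and no iCLIP library reached the minimum in any of them. That they kept the call is therefore no sign of stability.

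**Figure D5:**
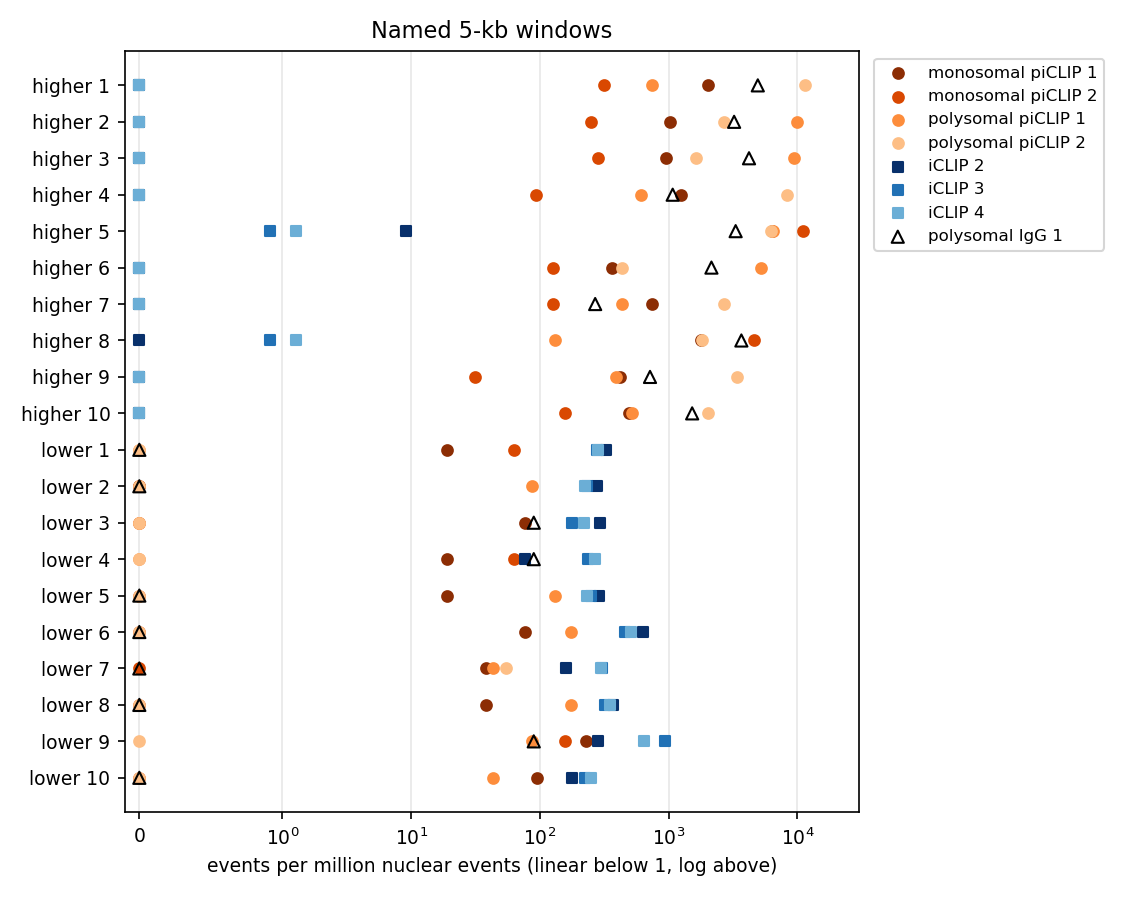
CPM over nuclear events (linear below 1, log above) of the 20 named windows, ordered by fold change within the higher and the lower set; orange circles are the 4 piCLIP immunoprecipitates, blue squares the 3 iCLIP libraries and open triangles the polysomal IgG library. The triangle lies within the range of the circles in 9 of the 10 higher windows and below it in the fifth, and 8 of the 10 have all iCLIP squares at 0. The monosomal IgG library is not drawn. It lay above all 4 immunoprecipitates in the higher windows 1, 4, 7, 9 and 10.

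Adjacent called windows formed 414 runs where piCLIP was higher, none longer than 2 windows, and 25 where it was lower, the longest of 3 windows. The lower run of 3 was on the plus strand of chr17:23945001-23960000, with 248, 0, 433 and 164 CPM in piCLIP against 1612, 1134 and 1204 CPM in iCLIP, and no event of either IgG library. The library without UV held 1720 CPM in this run, above the iCLIP mean of 1317 CPM. Lower runs of 2 windows were on the plus strand of chr16:33720001-33730000 (141 CPM ± 197.5 in piCLIP, SD, n = 4, and 555 ± 36.9 in iCLIP, n = 3) and on the minus strand of chr17:80660001-80670000 (119.5 ± 123 and 466 ± 42.0). There the library without UV held 478 and 285 CPM, below the iCLIP means.

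Of the higher runs the one with the most events was the minus strand of chr5:89630001-89640000, with 9576, 3670, 4984 and 1256 CPM in piCLIP against 40.8, 32.0 and 39.2 CPM in iCLIP. The minus strand of chr1:90990001-91000000 followed with 2963, 1757, 1604 and 1092 CPM against 54.3, 44.8 and 47.6 CPM, a ratio of means of 37.9. There the events were broad in both groups, with 90% of them within 1047 and 2667 nt in the windows for piCLIP and 1418 and 3154 nt for iCLIP. The polysomal IgG library held 179 CPM and the monosomal one none. The minus strands of chr13:23415001-23425000 (ratio 18.01) and chr11:70890001-70900000 (ratio 21.1) and the plus strand of chr10:24570001-24580000 (ratio 9.09) were the next runs. Monosomal IgG held 867 CPM in the chr13 run, where piCLIP averaged 929 CPM, and 2602 CPM in the chr11 run, where piCLIP averaged 1311 CPM. It held none in the chr10 run, where polysomal IgG had 269 CPM. The monosomal IgG library has 1153 events in all, so that 2602 CPM is 3 events and 867 CPM is fewer. Its level in a run, or its lack of events there, therefore sets no firm control value. The 269 CPM of polysomal IgG are also only 3 events.

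Windows chosen by whole-cell level gave the opposite split. When the 336 windows with at least 100 CPM in the mutZn libraries were tested, a set added after the data were seen, 110 (32.7%) passed, 109 of them (32.4%) lower and 1 higher in piCLIP. As a set chosen for a high level in whole cells, it is open to that direction just as the first set is to the other. The estimates were negative for 292 and positive for 44 of the 336, with a median log2 fold change of -1.30, and 16 windows had no piCLIP event. Together the 336 windows held 10.5%, 5.74%, 5.17% and 4.18% of the piCLIP events and 9.33%, 8.78% and 8.09% of the iCLIP events. Monosomal replicate 1 was above iCLIP and the other 3 libraries were below. The IgG libraries had 6.505% and 2.49%.

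The strongest of these windows were strong in both groups. The minus strand of chr19:5795001-5800000 had 10780, 3419, 4637 and 3057 CPM in piCLIP against 8863, 7601 and 6560 CPM in iCLIP (log2 fold change -0.55 ± 0.51, SE, adjusted p = 0.41). The minus strand of chr17:80600001-80605000 had 19955, 6117, 9492 and 3930 CPM against 15285, 10180 and 8350 CPM (-0.27 ± 0.49, SE, adjusted p = 0.70). In both, monosomal replicate 1 was the highest of the 7 libraries and polysomal replicate 2 the lowest. The 1 window that was higher, on the plus strand of chr12:110780001-110785000, had 478, 314, 347 and 54.6 CPM against 22.6, 84.2 and 88.7 CPM (2.05 ± 0.63, SE, adjusted p = 0.0124), with polysomal replicate 2 inside the iCLIP range.

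Set apart by fraction, 479 windows (78.8%) passed for the monosomal and 437 (71.9%) for the polysomal libraries against the shared iCLIP libraries. Between the fractions none of the 608 windows passed (0%), and 34 had an unadjusted p below 0.05. A p that misses the threshold at 2 libraries against 2 does not show that the fractions were alike.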

How the data were processed

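The authors deposited 1 table per library with a signed score for every crosslinked position. The absolute score counts cDNAs and its sign marks the strand, per the file headers, which name mouse build mm9 and annotation Ensembl 59. CASAVA 1.4 is named in the submitters' processing notes. The aligner and any collapsing of PCR copies were not given in the sources used here. Absolute scores were summed as events. Events on the mitochondrial chromosome and on unplaced contigs were left out. Since the column is a signed score, edgeR and DESeq2 were not used, and window sums were tested with a negative binomial quasi-likelihood model written in R 4.3.3 (library totals as scaling, limma 3.58.1 squeezeVar, Benjamini-Hochberg adjustment over all windows tested). On simulated data for piCLIP against iCLIP (608 windows) it recovered 7.46%, 41.8% and 68.2% of windows changed 2-fold, 4-fold and 8-fold, with 1 false among 79 calls. All libraries were drawn from the model's own fitted spread, with equal starting levels in both groups. A spread that differs between the groups was not simulated, nor were windows filled in 1 group alone. The false calls therefore do not give the error rate of these data.

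Single values per library were compared with two-sided exact permutation tests in scipy 1.17.1. Reduction to equal depth used exact hypergeometric expectations. Windows were named by rule: called, averaging 5 or more events per piCLIP library (higher) or 20 per iCLIP library (lower), no overlap in CPM, and the 10 largest fold changes each way, and the 5 longest runs. The part of the rule that needed an mm9 annotation was not applied, no gene is assigned to a window and no sequence is shown. The libraries and lists were chosen with earlier results of these data known. Where libraries are not separate cultures, p-values measure technical spread.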

Additional observations from a re-analysis of the deposited data

Results flagged for a closer look

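Among the 4 piCLIP immunoprecipitates, the gap of 1 library to the next was larger, relative to the whole range, than Dixon's 95% critical value in 9 of 25 sets of values examined. The 5% that chance gives does not apply here, since most sets are windows picked for a large fold change and the lower ones hold mostly zeros. In the higher windows these were polysomal replicate 2 at chr2:40900001-40905000 (11409 CPM), chr1:109660001-109665000 (8297 CPM) and chr12:63685001-63690000 (3384 CPM), polysomal replicate 1 at chr11:62050001-62055000 (9492 CPM) and chr9:95035001-95040000 (5244 CPM), and monosomal replicate 2 at chr16:33045001-33050000 (11105 CPM). In the lower windows they were polysomal replicate 1 at chr17:23945001-23950000 (86.7 CPM) and chr8:125415001-125420000 (130 CPM) and monosomal replicate 1 at chr13:28975001-28980000 (76.5 CPM), each from 2 to 4 events.

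Events on unplaced contigs, which entered no comparison, made up 0.304% and 0.359% of the monosomal and 0.268% and 0.207% of the polysomal immunoprecipitates, against 0% and 0.170% in the IgG libraries of the same fractions and 0.0835% to 0.101% in iCLIP. The monosomal IgG library held 0 events on contigs among 1153, which allows a share of up to 0.26%.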

How the results depend on the processing

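The 5 single values kept their direction and their side of the threshold in 79 of 81 alternatives, but no two-sided p below 0.0571 was possible, so the side of the threshold says nothing about stability. The exceptions were the thin share with polysomal libraries only (1.13 points) and the neighbour share at 100000 nt (-6.75 points). The groups did not overlap in 18 of 19 alternatives for the packed share, 14 of 15 for the outside share, 14 of 14 for occupied windows, 15 of 15 for the neighbour share and 4 of 18 for the thin share. With the D27aa libraries as the map, about 90% of the events of both groups lay outside it (90.1% in piCLIP and 89.8% in iCLIP).

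The number of windows tested changed with the setting, so counts are given with it. Against 479 of 608 (78.8%), 288 of 608 (139 higher and 149 lower) were called with trimmed-mean scaling. Without bins that held an IgG event 281 of 357 were called. In windows chosen by the mutZn level the count was 110 of 336 (43 with trimmed-mean scaling and 81 with limma-voom). It was 1096 of 2737 (40%) with monosomal libraries only and 438 of 2471 (17.7%) with polysomal libraries only. Without 1 library each the count was 364 to 796, or 44.2% to 85.1% of the windows tested. It was 793, 796 and 750 without monosomal replicate 1, monosomal replicate 2 or polysomal replicate 1, where 1421, 1592 and 1572 windows reached the minimum. The count was 488 of 608 with limma-voom and 653 of 297014 (0.22%, all of them higher) without a minimum. It was 365 of 408 with each position counted 1 time, 459 of 644 after thinning iCLIP and 367 of 465 with iCLIP 3 and 4 summed to 1 library. piCLIP and iCLIP share only the replicate number 2, so the replicate block joins the fractions. It gave 1186 calls of 2661 windows (794 higher and 392 lower) when fractions of one number were summed and 471 of 608 with an estimated correlation of 0.565. Deviations of equal numbers correlated at 0.43 over 608 windows, a hint from 2 pairs and not from the design. Of 155 alternatives for the 10 lower windows 29 lost the call, and of 162 for the 10 higher ones none did. The higher windows were picked for the largest fold change and could not be tested without IgG bins. Their kept calls therefore say nothing about stability. The named lower windows hold 2 to 19 piCLIP events, which limits their precision.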

Other observations

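Whole-cell libraries outside the comparison give the range of the same measures at like depth. The 7 UV libraries made with an antibody against SRSF7 had packed shares of 5.72% to 11.2% and outside shares of 15.8% to 25.7%, at totals of 17714 to 467928 events. Reduced to 18319 events, the 6 of them that were deep enough had 13.3% to 24.9% of their events within 100 nt of another, and hit 13440 to 14627 windows of 5000 nt. The 2 UV libraries of the D27aa variant had 10.3% and 10.6% and hit 14887 and 14864 windows. On both measures the 4 piCLIP immunoprecipitates, at 40.6% to 58.5% and 9477 to 11533 windows, lay beyond these libraries. The packed share did not separate them, since the highest of the anti-SRSF7 libraries (11.208%) was above polysomal replicate 1 (11.203%).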
